A study of Mus musculus with 10 samples.

Results

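The RNA of cultures labelled as aortic smooth muscle cells of wild-type mice was described across all 36144 genes of the expression table. The 3 libraries were chosen by the genotype label, wild type, and make up 3 of the 10 samples of the series and 3 of its 6 RNA libraries. Each came from a different mouse (mouse 1, mouse 2 and mouse 3, here library 1, library 2 and library 3). The series sets such cells beside cells with smooth-muscle-specific overexpression of Adamts7, a secreted metalloprotease, and its title places the question in smooth muscle foam cells of atherosclerosis. Those cells and the chromatin accessibility samples were not analysed here.

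The mice were 8-week-old males. Per the labels' protocols, the aorta was taken from the ascending arch to the diaphragm, a short collagenase II and elastase digestion loosened the adventitia so that it could be removed, and the media was then digested to single cells. The cells grew in medium with 20% fetal bovine serum and were used between passages 2 and 7. The sources used here do not give the passage of each library, the mouse strain or any step against the endothelium. All 3 libraries carry the same batch label. The cells are a primary culture several passages from the vessel, so the values describe the culture and not the aortic wall. Every level below is in TPM, a unit of transcript abundance that corrects for transcript length and scales each library to the same total. A value after ± is the SD over the 3 libraries (n = 3), and the rank is by mean TPM among all genes, with rank 1 the most abundant.

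Smooth muscle cells of the aortic media contract through actin and smooth muscle myosin and hold a set of actin-binding proteins that few other cells make in quantity. Serum response factor, with its partner myocardin, drives many of these genes through a DNA element named the CArG box. In culture with serum the same cells divide, spread and secrete matrix, a condition usually called synthetic, and lose part of the contractile set. Endothelial cells line the vessel and are recognised by junction proteins such as VE-cadherin (Cdh5) and PECAM-1 (Pecam1), whereas macrophages are recognised by complement C1q, lysozyme and the CSF1 receptor.

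The label of the cells was first checked against marker genes. Of 10 defining contractile genes, all 10 reached 1 TPM by their mean, 8 reached 10 TPM and 4 reached 100 TPM. Acta2 (smooth muscle alpha-actin, chr19:34240336-34255585) stood at 1246, 1291 and 1209 TPM, rank 79. Tagln (transgelin, an actin-binding protein of smooth muscle, chr9:45929628-45936058) stood at 828, 855 and 833 TPM, rank 142. Cald1 (caldesmon, which restrains actin-activated myosin, chr6:34598495-34775469) stood at 1535, 1551 and 1576 TPM, rank 58. These 3 genes of the contractile list were among the 142 most abundant of the table and varied little between mice. Values per gene do not separate isoforms, so Cald1 RNA was not divided between muscle and non-muscle forms. The libraries also held the endothelial markers at a high level: all 8 defining endothelial genes reached 1 TPM and 7 reached 10 TPM. Emcn (endomucin, a sialoglycoprotein of the endothelial surface, chr3:137341062-137431069) stood at 2148, 1825 and 2164 TPM, rank 36, above Acta2 in every library. Fn1 (fibronectin, chr1:71585473-71653280) stood at 5875, 5924 and 5701 TPM, rank 15, and was among the most abundant of all nuclear genes. The 2 defining contractile genes under 10 TPM were Myocd (myocardin), at 4.61 ± 0.647 TPM, and Des (desmin), at 2.35 ± 0.714 TPM, and Myh11 and Cnn1, markers of mature smooth muscle, were also low, at 37.3 ± 6.59 TPM and 46.2 ± 4.25 TPM. The markers therefore go against a pure smooth muscle label, and the cells are called by their label only. RNA of the contractile list stood beside endothelial RNA of a similar summed level, as set out further on. That list also holds genes not restricted to smooth muscle, such as Myl6, so its sum is not one of smooth muscle RNA alone. Coordinates are those of RefSeq for GRCm38.p6. Ddx3y, an RNA helicase gene of the Y chromosome, stood at 52.2, 52 and 52 TPM, and the mice are labelled male.

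**Figure D1:**
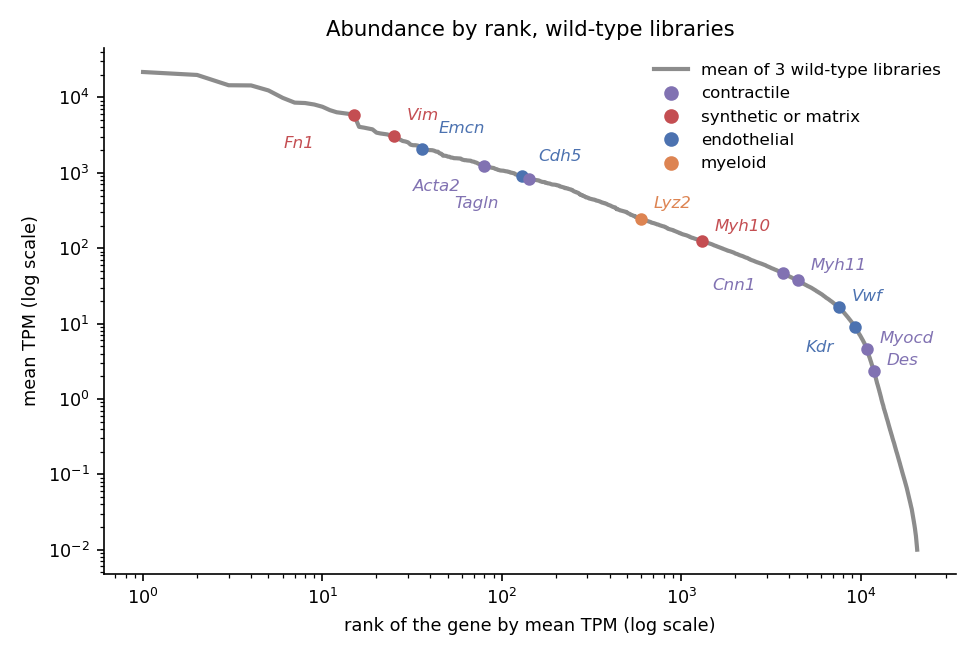
Mean TPM over the 3 wild-type libraries (vertical axis, log scale) against the rank of each gene (horizontal axis, log scale); the grey line is all genes whose mean was 0.01 TPM or more and the coloured points are named genes. Acta2, Tagln, Emcn and Cdh5 lie within the top 142 ranks, whereas Cnn1 and Myh11 lie at ranks 3711 and 4459 and Myocd and Des further to the right.

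Abundance was concentrated in few genes. In a library 18802 to 19184 genes were above 0 TPM and 13021 to 13073 reached 1 TPM. By the mean, 13036 genes (36.1% of the table) reached 1 TPM, 9019 (25.0%) reached 10 TPM, 1682 (4.65%) reached 100 TPM and 114 (0.315%) reached 1000 TPM, and 14969 genes (41.4%) were listed at 0 in all 3 libraries. These shares of all genes are the ones to set beside every count of list members in this text, also where they are not repeated. The 100 most abundant genes held 32.1%, 31.0% and 30.3% of all TPM in libraries 1, 2 and 3. It took 399, 417 and 434 genes to hold 50% of the TPM. The 13 mitochondrially encoded protein genes alone held 14.3%, 13.0% and 12.4%, and the 103 ribosomal protein genes held 6.94%, 7.67% and 7.76%. Library 1 was thus the highest in mitochondrial RNA and the lowest in ribosomal protein RNA. The 14883 gene models and pseudogenes, recognised by their symbols, held 4.70% to 4.79%.

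Among the 30 most abundant genes, 11 were mitochondrially encoded, 3 encoded ribosomal proteins, 1 was a gene model and 15 were other nuclear genes. Apart from the mitochondrially encoded genes and that gene model, the highest was Eef1a1, the elongation factor that brings aminoacyl-tRNA to the ribosome, at 6270.3, 6481 and 6321 TPM. S100a11, a small calcium-binding protein, followed at 6451, 5835 and 5872 TPM. Fn1 came next, so that a secreted matrix protein ranked beside the machinery of translation. The cytoskeleton was represented by Actb (cytoplasmic beta-actin), at 4939, 3576 and 3419 TPM, by Tmsb10 (thymosin beta 10, which binds actin monomers), at 3531, 3106 and 3599 TPM, and by Vim (vimentin), at 3091, 3083 and 3013 TPM. Actb was the least even of these, and library 1 held the high value. Iron storage was represented by Fth1 and Ftl1, the heavy and light chains of ferritin, at 4073 ± 209 TPM and 3329 ± 506 TPM. Cpe, carboxypeptidase E, an enzyme of peptide hormone processing, reached 3715, 3949 and 3958 TPM. The others were S100a6 (3771 ± 94.9 TPM), B2m (3278 ± 320.3 TPM), Hspa8 (3229 ± 60.2 TPM), Gapdh (3112 ± 303 TPM), Ctla2a (2768 ± 238 TPM) and Ppia (2602 ± 41.6 TPM), which encode a calcium-binding protein, the light chain of MHC class I, a constitutive chaperone, a glycolytic enzyme, a cathepsin inhibitor and cyclophilin A.

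The contractile apparatus was present at every member but uneven. All 25 genes of the list reached 1 TPM, 21 reached 10 TPM and 15 reached 100 TPM, beside 36.1%, 25.0% and 4.65% of all genes. Their summed TPM was 0.953%, 0.967% and 0.952% of the library total. Myl6, the essential light chain shared by smooth muscle and non-muscle myosin, led the list, followed by Cald1, Acta2, Tpm1 and Tagln. Myl6 stood at 1956, 2072 and 2072 TPM. Tpm1 (alpha-tropomyosin) stood at 857, 840.5 and 906 TPM, and Actn1 (alpha-actinin 1, which cross-links actin) at 730.0, 671 and 671 TPM. Csrp1, a LIM protein of the actin cytoskeleton, stood at 504, 534 and 529 TPM, and Flna (filamin A) at 461, 461 and 421 TPM. Vcl (vinculin, which ties actin to adhesions) had a mean of 195 ± 3.11 TPM, and Smtn (smoothelin) one of 143 ± 6.46 TPM.

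The members most tied to mature smooth muscle were lower. Myh11, the smooth muscle myosin heavy chain, stood at 43.9, 37.2 and 30.7 TPM, rank 4459. Cnn1 (calponin 1) stood at 50, 47 and 41.6 TPM, rank 3711. Actg2, the smooth muscle gamma-actin, stood at 45, 33.6 and 29.2 TPM. All 3 genes were highest in library 1 and lowest in library 3. Lmod1, leiomodin 1, which nucleates actin filaments in smooth muscle, stood at 29.1, 31.6 and 28.7 TPM. Des (desmin, the muscle intermediate filament) was at 3.0, 2.46 and 1.58 TPM and was the lowest member of the list. Myocd, the transcriptional coactivator myocardin, was at 4.20, 5.36 and 4.28 TPM. In the same libraries Acta2 exceeded Myh11 by 28.4, 34.7 and 39.3 times. The other members under 10 TPM were Synpo2 (synaptopodin 2), at 6.84 ± 0.74 TPM, and Mrvi1 (a partner of cGMP kinase at the calcium store), at 4.65 ± 0.918 TPM.

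CArG boxes were looked for in the promoters of these genes, because this is the element through which serum response factor acts. The motif was counted by its name, in its strict form with an A or T at each of the 6 central positions between CC and GG, and in a relaxed form with at most 1 G or C there; the element is a palindrome, so that both strands are read at once. The window ran from 250 bases before to 50 bases after each RefSeq start. The strict form was present in 3 of the 20 contractile genes that have a promoter in the RefSeq table (15%: Myl9, Myl6 and Vcl), beside 488 of 27025 genes (1.81%) overall and 1.52% of the 9834 with at least 1 TPM. The relaxed form was present in 4 of the 20 (20%), adding Acta2, beside 11.3% of all genes. None of 15 endothelial genes held the strict form and 4 (26.7%) held the relaxed one. The sequences are shown so that the strict boxes of Myl9, Vcl and Myl6 can be set beside the pair of boxes in Acta2. Capitals mark the boxes, and all runs are 5′ to 3′ from RefSeq, GRCm38.p6. Whole stretches are given for Myl9 (chr2:156775214-156775407, plus strand, ending where the annotated gene begins) and Vcl (chr14:20929148-20929382, plus strand, likewise), and 30 bases around each box for Acta2 (chr19:34255438-34255467 and chr19:34255388-34255417, minus strand) and Myl6 (chr10:128493040-128493069, minus strand).
Myl9: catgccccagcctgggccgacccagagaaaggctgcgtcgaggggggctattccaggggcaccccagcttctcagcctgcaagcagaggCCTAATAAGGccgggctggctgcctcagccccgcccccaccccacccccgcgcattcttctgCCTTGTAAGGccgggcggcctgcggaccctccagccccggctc
Vcl: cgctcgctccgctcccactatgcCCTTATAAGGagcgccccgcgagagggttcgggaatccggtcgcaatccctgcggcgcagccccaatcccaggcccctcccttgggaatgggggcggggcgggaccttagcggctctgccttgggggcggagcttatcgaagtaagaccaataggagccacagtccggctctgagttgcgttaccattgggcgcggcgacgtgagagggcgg
Acta2 first box: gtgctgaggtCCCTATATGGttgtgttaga
Acta2 second box: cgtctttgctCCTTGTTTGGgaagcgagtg
Myl6: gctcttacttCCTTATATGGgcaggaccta
The Myl9 boxes begin 161 and 99 bases before the start, those of Acta2 84 and 34 bases before it, and those of Myl6 and Vcl 50 and 227 bases before it. RefSeq lists a further start for Myl6, at the beginning of the annotated gene, and its window held no box; the box shown lies before a second start inside the gene. The starts used for Acta2, Myl9 and Vcl also lie inside the annotated genes. The bases before the start run on to chr2:156775463 for Myl9 and chr14:20929397 for Vcl. The distances given for these 2 genes are counted from there and not from the end of the printed stretches. A gene was counted where any of its windows held the motif, and the 20 contractile genes had 24 windows. Both Acta2 boxes, and the second box of Myl9, carry 1 G or C in the centre, whereas the boxes of Myl6 and Vcl and the first box of Myl9 do not. Of the genes shown, Myl6 had the highest level, at 2033 TPM, then Acta2, at 1249 TPM, Myl9, at 228 TPM, and Vcl, at 195 TPM. A match is only a match of letters, and no protein bound to these sequences was measured here.

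Actin, myosin and calponin genes come as smooth muscle and non-muscle partners, and comparing partners within a library removes depth and total RNA from the comparison. It does not remove a mixture of cell types. The broadly expressed partners were not assigned to any kind of cell, so the ratios describe the culture and not its smooth muscle cells alone. Acta2 made up 15.8%, 19.4% and 19.1% of actin TPM in libraries 1, 2 and 3, and Actb 62.7%, 53.8% and 54.1%. The ratio of Acta2 to Actb was 0.252, 0.361 and 0.354, so that cytoplasmic actin exceeded smooth muscle actin in all 3 libraries. The lowest ratio was that of library 1, where Actb was highest. Actg1, the cytoplasmic gamma-actin, stood at 1646, 1747 and 1665 TPM. The actin genes have near-identical coding sequences, and the division of their reads by the authors' estimation was not tested here.

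Myosin was further from the smooth muscle form than actin was. Myh9, the heavy chain of non-muscle myosin IIA, stood at 506, 485 and 486 TPM and made up 75.4%, 74.8% and 75.3% of myosin heavy chain TPM. Myh10, the heavy chain of non-muscle myosin IIB, stood at 119.8, 123 and 126 TPM. Myh11 made up 6.54%, 5.74% and 4.76%. Myh9 exceeded Myh11 by 11.5 to 15.8 times and Myh10 exceeded it by 2.73 to 4.12 times. Of the sarcomeric heavy chains, Myh1, Myh6 and Myh7 were under 1 TPM and Myh2 and Myh3 were listed at 0 in all 3 libraries. Among light chains, Myl9, the regulatory chain of smooth muscle, stood at 247, 231 and 205 TPM, below its non-muscle relatives Myl12a, at 934 ± 66.1 TPM, and Myl12b, at 1911 ± 35.5 TPM.

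Calponins went in the same direction as myosin, whereas transgelins did not. Cnn2 and Cnn3, the more widely expressed calponins, stood at 337, 341 and 343 TPM and at 407, 403 and 417 TPM, above Cnn1 in every library. Tagln, in contrast, remained above its broadly expressed relative Tagln2, with ratios of 1.33, 1.24 and 1.13. Tropomyosins were divided between Tpm1 (868 TPM), Tpm4 (754 TPM) and Tpm3 (719.6 TPM), with Tpm2, the muscle beta-tropomyosin, at 196, 195 and 166 TPM. For the intermediate filaments, Vim exceeded Des by 1030.3 to 1901 times. The broadly expressed partner was thus the higher in all 3 libraries for Acta2 and Actb, Myh11 and Myh9, Cnn1 and Cnn2, Tpm2 and Tpm4, and Des and Vim. The smooth muscle gene was the higher in all 3 libraries for Tagln and Tagln2, and so was Tpm1 of the contractile list beside Tpm4, with ratios of 1.11, 1.15 and 1.20. With 3 libraries a two-sided exact sign-flip test cannot give a p below 0.25, so no test was made.

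**Figure D2:**
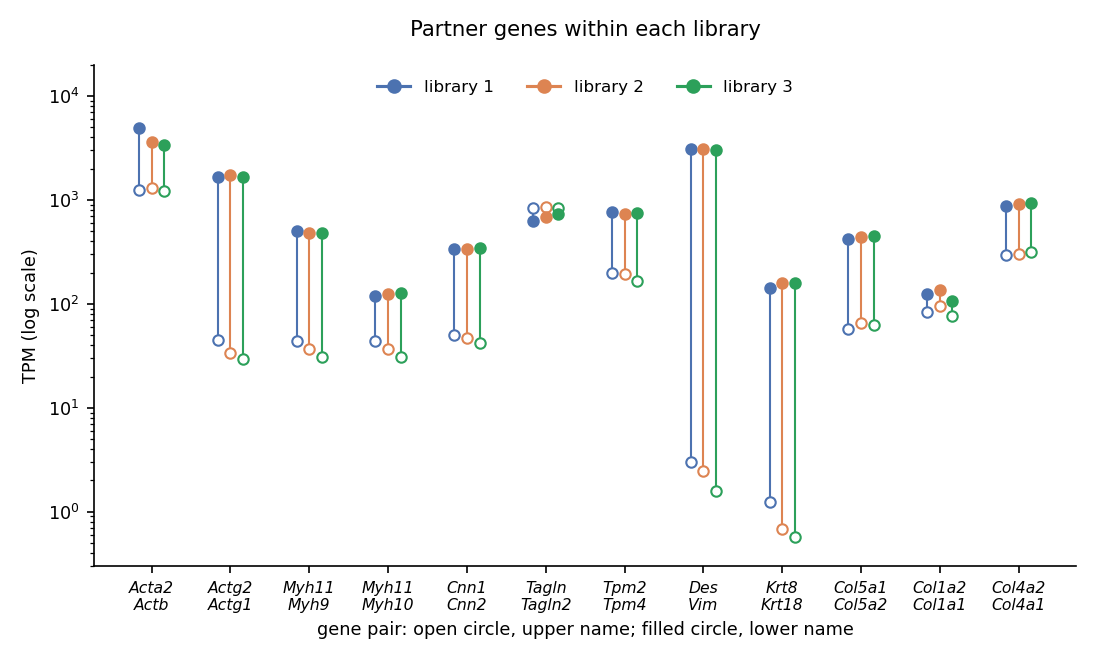
TPM (vertical axis, log scale) of 12 gene pairs in each wild-type library; the open circle is the gene named above, the filled circle the gene named below, and a line joins the values of 1 library. Filled circles lie above open circles in all libraries, except for Tagln and Tagln2, and the distance is widest for Des and Vim; Tpm1 and Tpm4 are not drawn as a pair.

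The signalling side of contraction was low beside the contractile apparatus. Of 26 genes for receptors, channels and calcium handling, 19 (73.1%) reached 1 TPM, 6 reached 10 TPM and 2 reached 100 TPM. The shares of all genes at these levels were 36.1%, 25.0% and 4.65%. Together the 26 genes held 0.0445%, 0.0412% and 0.0421% of TPM. The 2 highest were Atp2a2 (the calcium pump of the sarcoplasmic reticulum), at 136, 119 and 125 TPM, and Rock2 (a kinase that sustains myosin phosphorylation), at 106, 96.4 and 102 TPM, and both act in many cell types. Kcnmb1, the smooth muscle subunit of the large-conductance potassium channel, was at 2.46, 2.25 and 2.12 TPM. Cacna1c, the pore of the L-type calcium channel, was at 1.80, 1.51 and 1.66 TPM. Prkg1, the cGMP-dependent kinase of relaxation, was at 2.80, 2.78 and 2.84 TPM. Rgs5, a regulator of G-protein signalling in mural cells, was at 3.41, 3.25 and 2.70 TPM. The median of the list was 2.57 TPM, beside 137 TPM for the contractile apparatus. Agtr1a and Ednra, the receptors for angiotensin II and endothelin 1, were at 0.192 ± 0.163 TPM and 0.0743 ± 0.0599 TPM, and Pln (phospholamban) was listed at 0 in all 3 libraries.

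Of 18 transcription regulators of smooth muscle, 16 reached 1 TPM and 11 reached 10 TPM. Srf, serum response factor itself, stood at 47.6, 44.5 and 46.6 TPM and exceeded its partner Myocd by 11.4, 8.30 and 10.9 times. The myocardin-related factors Mrtfa and Mrtfb, which answer to actin monomers, stood at 26.7 ± 2.07 TPM and 48.5 ± 0.89 TPM. Klf4, a factor that opposes the contractile genes, stood at 32.1, 37.3 and 30.7 TPM. Mef2d, Mef2a, Gata6 and Tead1 were the highest, from 67.5 TPM to 97.9 TPM. Tcf21, a factor of the epicardial and adventitial lineage, was at 0.039 ± 0.0378 TPM.

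Genes of the synthetic state were higher as a sum than the contractile list. Of 29 genes, 27 reached 1 TPM, 24 reached 10 TPM and 17 reached 100 TPM, with 2.16%, 2.18% and 2.14% of TPM. The summed contractile level was 0.441, 0.444 and 0.446 times the synthetic one in libraries 1, 2 and 3. By the median member the same ratio was 0.989, 0.867 and 0.847, because few very abundant genes carry the synthetic sum. These were S100a6, Vim, Thbs1 (thrombospondin 1, a matricellular protein), at 2428, 2388 and 2269 TPM, and Bgn (biglycan, a proteoglycan), at 2036, 2049 and 1918 TPM. Sparc, a collagen-binding protein of remodelling matrix, stood at 2001, 1989 and 2012 TPM, and Ccn2, a target of TGF-beta and YAP signalling, at 1555, 1538 and 1598 TPM. Both lists hold broadly expressed genes, such as Myl6 and Vim, so the contractile to synthetic ratio is not one of smooth muscle RNA alone.

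The defining members of that list spread over a wide range. Mgp, matrix Gla protein, which inhibits calcification, stood at 685, 694 and 708 TPM. Lgals3 (galectin 3), often used to mark smooth muscle cells that resemble macrophages, stood at 93.2, 112 and 96.4 TPM. Spp1 (osteopontin) stood at 40.3, 34.7 and 47.7 TPM, and Ly6a (SCA-1) at 44, 45.1 and 35.6 TPM. Tnfrsf11b (osteoprotegerin, a marker of modulated smooth muscle cells in plaques) was at 2.81, 3.02 and 3.39 TPM. Lum (lumican), a small proteoglycan of collagen-rich matrix, was at 0.0302 ± 0.0376 TPM, and Krt8 was at 0.83 ± 0.365 TPM, whereas its partner Krt18 was at 153 ± 10.5 TPM. The list shares 12 genes with the matrix lists, so the sums below are not separate from it.

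Among the matrix lists, adhesive glycoproteins held the most RNA and fibrillar collagens far less. The 22 matricellular and adhesive glycoproteins held 1.49%, 1.49% and 1.46% of TPM, of which Fn1 was the largest part. The 23 basement membrane genes held 0.228%, 0.231% and 0.235%, and the 11 fibrillar collagens 0.0738%, 0.0792% and 0.0742%. The ranges of these 3 lists did not overlap. Between the glycoproteins and the basement membrane lay matrix proteases and inhibitors, with a mean of 0.359%, proteoglycans, with 0.302%, and collagen processing, with 0.271%.

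Among fibrillar collagens 9 of 11 reached 1 TPM. Col1a1 and Col1a2, the 2 chains of type I collagen, stood at 124, 135 and 107 TPM and at 83.2, 95.8 and 76.6 TPM. Their ratio was 1.49, 1.41 and 1.40, which was nearly constant between mice although both were lowest in library 3. Col3a1, type III collagen, stood at 32.6, 33.3 and 29.2 TPM. Col5a2, a chain of the type V collagen that starts fibrils, was the highest, at 420.4, 444 and 447 TPM. Its partner Col5a1 stood at 56.8, 65.2 and 62.3 TPM, so that Col5a2 exceeded it by 7.40, 6.80 and 7.17 times.

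Type IV collagen, the network former of basement membranes, was more abundant than type I. Col4a1 stood at 866, 923 and 939 TPM, and Col4a2 at 295, 305 and 316 TPM. Col4a1 exceeded Col1a1 by 7.0, 6.86 and 8.78 times, and Fn1 exceeded Col1a1 by 47.5, 44 and 53.3 times. Both ratios were highest in library 3, where Col1a1 was lowest. Hspg2 (perlecan) and Nid1 (nidogen 1), which link laminin and collagen networks, stood at 296 ± 11.1 TPM and 228 ± 15.9 TPM. The laminin chains Lamb1 and Lamc1 stood at 136 ± 6.18 TPM and 74 ± 6.23 TPM, and the alpha chains Lama5 and Lama4 at 39.5 ± 0.473 TPM and 37.7 ± 0.437 TPM. Col8a1, a short-chain collagen of vessels, led the other collagens at 173, 195 and 201 TPM, and Col6a1 stood at 25.2 ± 1.26 TPM.

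Elastic fibre genes were present almost throughout, with 20 of 21 reaching 1 TPM and 19 reaching 10 TPM. Eln (elastin) stood at 135, 128 and 124 TPM, and Lox (lysyl oxidase, which cross-links elastin and collagen) at 117, 109 and 89.1 TPM. Fbn1 (fibrillin 1) stood at 46.9, 50.5 and 42 TPM. Fbln2 (fibulin 2) led the list, at 594, 641 and 551 TPM. Of these 19 genes, 12 were lowest in library 3, whereas 24.6% of all genes with at least 10 TPM were lowest there. The proteoglycans were led by Bgn, and the other members were far lower: Dcn (decorin) stood at 24.6, 23.7 and 45.2 TPM, with library 3 high, and Vcan (versican) at 7.16, 6.18 and 6.63 TPM. The secretory side of collagen was abundant, with P4hb (a subunit of prolyl hydroxylase) at 785 ± 25.4 TPM and the collagen chaperone Serpinh1 at 624 ± 15.2 TPM.

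In the list of matrix proteases and inhibitors, Timp2 and Timp1 stood above every protease. Timp2, an inhibitor of metalloproteases, stood at 1243, 1186 and 1089.7 TPM and Timp1, of the same family, at 681, 574 and 564 TPM. Mmp2 (gelatinase A) was the highest protease, at 268, 271 and 287 TPM, and Timp2 exceeded it by 4.64, 4.38 and 3.80 times. Mmp14, the membrane protease that activates Mmp2, was at 136 ± 2.10 TPM. Mmp9 and Mmp3, inducible proteases of inflamed vessels, were at 0.546 ± 0.0946 TPM and 1.13 ± 0.187 TPM. Adamts7, the gene whose overexpression the series studies (chr9:90162904-90200102), was at 6.08, 6.18 and 8.20 TPM, rank 9984. Among integrins, Itgb1, the common beta chain of matrix receptors, stood at 936, 930.4 and 942 TPM, Itga5, its partner in the fibronectin receptor, at 94, 101 and 112 TPM, and Itga8, a smooth muscle integrin, at 25.4, 27.9 and 26.8 TPM.

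Endothelial RNA was present as a full set. All 31 genes of the general endothelial list reached 1 TPM, 28 reached 10 TPM and 16 reached 100 TPM, and their sum was 0.939%, 0.882% and 0.959% of TPM. That sum was 0.986, 0.913 and 1.01 times the contractile sum, so the ranges of the 2 lists overlap. The contractile sum includes genes shared with non-muscle cells, such as Myl6 at 2033 TPM. The overlap therefore depends on the members of the list and is not a ratio of smooth muscle to endothelial RNA. The median member was 103 TPM, beside 137 TPM for the contractile list. In bulk RNA, a culture with endothelial cells in it, smooth muscle cells that carry endothelial RNA, fewer cells of a type and less RNA per cell cannot be told apart. No part of the smooth muscle values was assigned to either kind of cell.

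After Emcn, the highest of the general endothelial list were Cd34, Cdh5, Pecam1, Plvap and Mmrn2. Cdh5 stood at 946, 864 and 948 TPM (chr8:104101613-104144504), and Pecam1 at 898, 878 and 894 TPM (chr11:106654213-106715281). Cd34, a sialomucin of endothelium and of adventitial progenitors, stood at 1084, 911 and 1008 TPM. Plvap, which forms the diaphragms of endothelial caveolae, stood at 888, 828 and 869 TPM, and Mmrn2 (multimerin 2, an endothelial matrix protein) at 803, 768 and 764 TPM. All 5 genes exceeded the 100 TPM that 4.65% of genes reach. Erg, the ETS factor that maintains endothelial identity, stood at 249, 244 and 245 TPM, and Tie1, a receptor kinase of endothelium, at 152, 163 and 172 TPM. Nos3, endothelial nitric oxide synthase, stood at 63, 72.6 and 70 TPM.

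Other textbook endothelial genes were low in the same libraries. Vwf (von Willebrand factor) stood at 13.1, 18.6 and 17.4 TPM, Tek (the angiopoietin receptor TIE2) at 15.4, 13.3 and 16.3 TPM and Kdr (VEGF receptor 2) at 9.49, 7.84 and 9.55 TPM. Cldn5 (claudin 5) was the lowest of the list, at 4.57, 5.95 and 5.95 TPM. Cdh5 exceeded Vwf by 72.4, 46.5 and 54.4 times, and Flt4 (VEGF receptor 3) exceeded Kdr by 3.15, 3.29 and 2.93 times. Cdh5 also exceeded Myh11, by 21.5, 23.2 and 30.8 times.

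Genes of arterial, venous and lymphatic endothelium were unevenly present. All 14 arterial genes reached 1 TPM and 9 reached 10 TPM. Bmx, a kinase of arterial endothelium, stood at 30.6, 35.1 and 34.9 TPM, Gja5 (connexin 40) at 27.2, 31.6 and 29.9 TPM and Dll4 (a Notch ligand) at 1.82, 2.02 and 3.29 TPM. Of 13 venous and capillary genes, 8 (61.5%) reached 1 TPM, beside 36.1% of all genes. Selp (P-selectin) led them, at 321, 303 and 301 TPM, Ephb4 (the venous ephrin receptor) stood at 46.5, 45.4 and 48 TPM, Nr2f2 (COUP-TFII, a factor of venous identity) at 6.59, 6.71 and 8.42 TPM, and Ackr1 and Car4 were listed at 0. Of 15 lymphatic and sinusoidal genes, 6 (40%) reached 1 TPM, near the 36.1% of all genes. Prox1, the factor that sets lymphatic identity, was at 0.411, 0.28 and 0.374 TPM, Lyve1 (a hyaluronan receptor) at 0.766, 1.27 and 0.741 TPM and Stab2 (an endocytic receptor of sinusoids) at 0, 0.121 and 0.0494 TPM, whereas Flt4 stood at 29.9, 25.8 and 28 TPM and Stab1, which macrophages also express, at 189.9, 186 and 228 TPM.

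**Figure D3:**
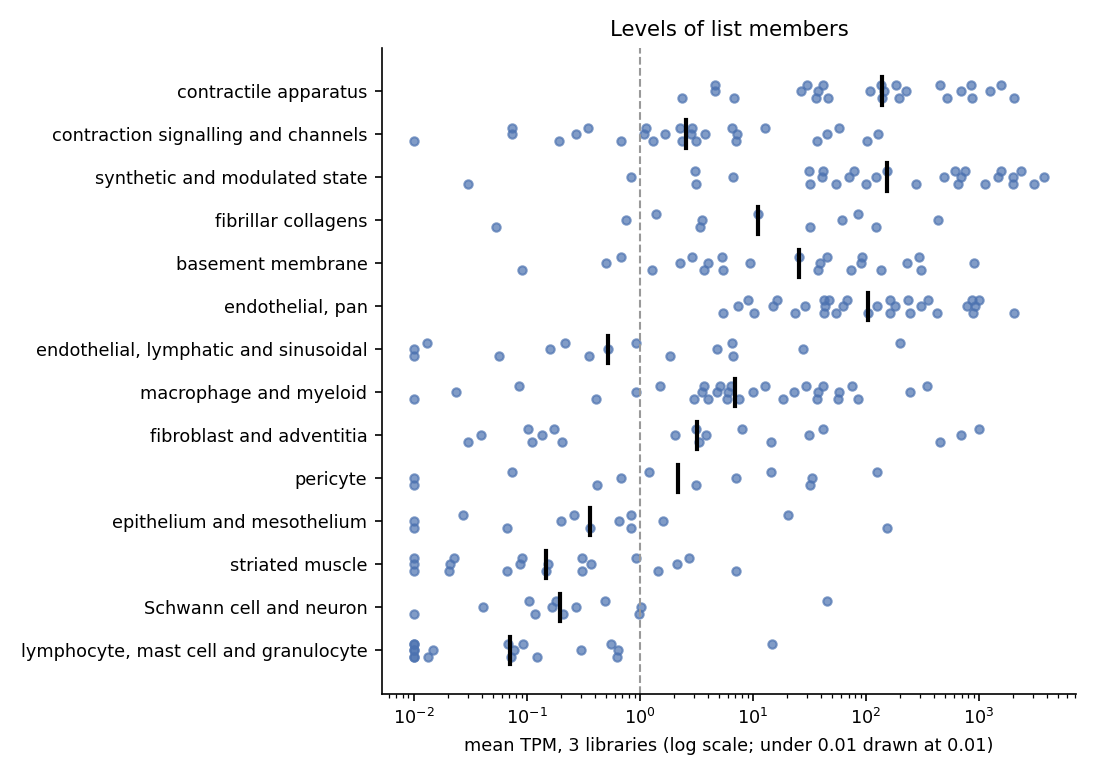
Mean TPM over the 3 wild-type libraries (horizontal axis, log scale) of each member of 14 gene lists; each point is a gene, the black bar is the median of the list and the dashed line is 1 TPM. The contractile, synthetic and general endothelial lists lie to the right, with medians of 137, 153 and 103 TPM, and the lists of epithelium, striated muscle, Schwann cells and lymphocytes lie mostly to the left of 1 TPM.

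Myeloid RNA was present at a lower level. Of 30 genes, 25 reached 1 TPM, 14 reached 10 TPM and 2 reached 100 TPM, and the sum was 0.0968%, 0.128% and 0.114% of TPM. The endothelial sum exceeded it by 9.70, 6.92 and 8.38 times. Gpnmb, a lysosomal glycoprotein that is not restricted to macrophages, stood at 342, 369.9 and 333 TPM. Lyz2 (lysozyme) stood at 189.7, 282 and 265 TPM, and C1qa (a chain of complement C1q) at 53.4, 91 and 80.1 TPM. Both were lowest in library 1 and highest in library 2. Cd68, a lysosomal protein, stood at 53.8, 61 and 58.2 TPM, and Csf1r (the CSF1 receptor) at 11.3, 16.3 and 11.1 TPM. The surface and lineage markers Adgre1 (F4/80), Ptprc (CD45), Itgam (CD11b) and Spi1 (PU.1) were at 5.86 ± 1.04 TPM, 3.97 ± 0.458 TPM, 3.68 ± 0.443 TPM and 7.59 ± 0.778 TPM. Csf1, the ligand, exceeded Csf1r by 84.1, 54.2 and 87.8 times.

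Of further cell types, the lymphocyte, Schwann cell, adipocyte, epithelial, striated muscle and erythroid lists lay mostly under 1 TPM. Of 18 genes of lymphocytes, mast cells and granulocytes, Kit alone reached 1 TPM, at 14.6 ± 1.02 TPM, 6 were listed at 0, and of the 4 defining genes Cd3e and Cpa3 were among those at 0. Of 12 Schwann cell and neuron genes 2 reached 1 TPM, of 10 adipocyte genes 2, of 13 epithelial and mesothelial genes 3, of 19 striated muscle genes 4 and of 7 erythroid genes 2. Each share was under the 36.1% of all genes. Single members stood higher: Krt18 at 153 TPM and Krt19 at 20.3 TPM (epithelium), Tubb3 at 44.8 TPM (neuron) and Lpl at 16.8 TPM (adipocyte). None of the defining genes of Schwann cells, adipocytes or striated muscle reached 1 TPM. The fibroblast and adventitial list was mixed, with 11 of 18 genes (61.1%) at 1 TPM or more, beside 36.1% of all genes. Its high members were Cd34, Thy1 and Gsn, genes that other cells also express, and Thy1 (a surface glycoprotein) stood at 833, 692 and 569 TPM. Its defining members were low: Pi16 was at 3.42, 3.13 and 5.08 TPM, Pdgfra (PDGF receptor alpha) at 2.66, 3.99 and 2.80 TPM, Clec3b at 0.0577, 0.153 and 0.202 TPM and Dpt (dermatopontin) at 0.122, 0.108 and 0.106 TPM. Of 12 pericyte genes 7 (58.3%) reached 1 TPM, and of the defining genes Kcnj8 and Higd1b were at 0.0741 ± 0.037 TPM and at 0.

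Of 17 cartilage and bone genes 8 (47.1%) reached 1 TPM, beside 36.1% of all genes. The list is given because modulated smooth muscle cells can take on such genes. Col2a1 (type II collagen) stood at 11.7, 10.9 and 10.6 TPM, Acan (aggrecan) at 10.9, 8.95 and 9.73 TPM, Sox9 (the cartilage factor) at 8.17, 6.55 and 4.71 TPM and Runx2 (the bone factor) at 4.95, 3.72 and 4.63 TPM. All 4 defining genes were above 1 TPM. Of the whole list Col2a1 alone reached 10 TPM, a level that 25.0% of all genes reach.

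The cells carried RNA of the cell cycle. All 30 genes of that list reached 1 TPM and 29 reached 10 TPM, with 0.363%, 0.363% and 0.386% of TPM. Mki67, present in cycling cells, stood at 70, 62.9 and 68.3 TPM, Top2a (topoisomerase II alpha) at 122, 113 and 122 TPM and Pcna (the DNA polymerase clamp) at 192, 206 and 219 TPM. Cdk4 and Ccnd1, the kinase and cyclin of early G1, were the highest, at 511 ± 19.2 TPM and 484 ± 11 TPM. Cell cycle inhibitors and p53 targets were abundant in the same libraries, 16 of 16 above 1 TPM. Cdkn1a (p21) stood at 317, 320.0 and 332 TPM, Trp53 (p53) at 218, 206 and 221 TPM and Cdkn2a, the locus of p16 and p19ARF, at 12.6, 14.8 and 13.1 TPM. Immediate early genes were moderate, with Jun at 78.9, 79.1 and 80.8 TPM, Egr1 at 46.6, 47.8 and 36.8 TPM and Fos at 9.26, 11.8 and 8.40 TPM. These 3 transcription factors are switched on within minutes by serum and handling.

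Ligands and receptors of growth factors were unequal. Of 42 genes, 37 reached 1 TPM and 30 reached 10 TPM. Bmp4, a bone morphogenetic protein, was the highest of them, at 1440.4, 1373 and 1410.3 TPM, rank 69. Acvrl1 (ALK1, a BMP receptor of endothelium) stood at 164 ± 5.69 TPM. Pdgfrb, the PDGF receptor of mural cells, stood at 31.2, 35.9 and 29.5 TPM and exceeded Pdgfra by 11.7, 9.0 and 10.5 times. Tgfb1 and its receptor Tgfbr1 stood at 84.3 ± 2.67 TPM and 15.7 ± 1.02 TPM. Pdgfd was the highest PDGF ligand, at 179 ± 5.88 TPM.

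Inflammatory mediators were divided into a few abundant genes and many near 0. Csf1 stood at 953, 882 and 976 TPM, Cxcl12 (a chemokine that retains leukocytes) at 790.2, 771 and 687 TPM and Vcam1 (an adhesion molecule for leukocytes) at 653, 668 and 624 TPM. Ccl2, the monocyte chemokine, stood at 70.1, 53.1 and 83 TPM. Il6 and Il1b, inducible cytokines, were at 0.897, 0.44 and 0.367 TPM and at 0, 0 and 0.0349 TPM, and 8 of the 20 genes were under 1 TPM. The title of the series names foam cells, and 20 of 21 genes of lipid uptake and storage reached 1 TPM. Apoe, an apolipoprotein of cholesterol transport, stood at 1044, 1508 and 1478 TPM, with library 1 low. Plin2 (which coats lipid droplets) stood at 89.6, 90.8 and 89.6 TPM, and Abca1 (a cholesterol exporter) at 12.5, 17.5 and 10.6 TPM. The scavenger receptors Cd36, Msr1 and Olr1 were at 6.80 ± 0.819 TPM, 5.10 ± 1.24 TPM and 0.275 ± 0.225 TPM.

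HOX genes keep a record of position along the body axis, and the libraries held a defined subset. Of 39 genes 22 (56.4%) reached 1 TPM, beside 36.1% of all genes. In the A cluster 9 of 11 did, spanning paralog groups 1 to 10, in the B cluster 8 of 10, spanning groups 2 to 9, and in the D cluster 4 of 9, spanning groups 3 to 9. In the C cluster Hoxc6 alone of 9 did, at 1.65, 2.16 and 2.23 TPM. The highest were Hoxb7, at 43.6, 47.1 and 49.6 TPM, and Hoxa7, at 40.3, 40.3 and 45.2 TPM. Hoxc9, of the cluster that was nearly silent, was at 0.24, 0.366 and 0.431 TPM, and Hoxc11, Hoxc12, Hoxd11 and Hoxd12 were listed at 0 in all 3 libraries.

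The spread between the 3 libraries was small and depended on level. The coefficient of variation (CV, the SD as a percent of the mean) had a median of 7.49% over the 13036 genes that reached 1 TPM, with the 10th and 90th percentiles at 2.45% and 22.3%. Its median was 18.4% for the 2374 genes between 1 and 5 TPM, 10.0% between 5 and 10 TPM, 6.79% between 10 and 50 TPM, 5.35% between 50 and 100 TPM, 4.60% between 100 and 1000 TPM and 4.52% above 1000 TPM. Read numbers are not given with TPM, so counting error and differences between mice cannot be told apart. Across these genes, log2(TPM + 1) of 2 libraries had a Pearson correlation of 0.986 (libraries 1 and 2), 0.987 (1 and 3) and 0.990 (2 and 3), given as a description because genes are not replicates. Between 128 and 170 genes differed by over 2-fold in a pair of libraries, and 101 to 126 of them were gene models or pseudogenes.

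Most of the widest genes were gene models or pseudogenes. Of the 9019 genes with at least 10 TPM, 209 (2.32%) were of this kind, yet these made up 18 of the 20 genes of largest CV and 43 of the 100. Their median CV was 13.0%, beside 5.94% for the other genes. The widest named gene was Gstp2, a glutathione transferase with a near-identical neighbour, at 2.15, 45.7 and 17.1 TPM. Nhej1, a DNA end-joining factor, stood at 64.8, 23.7 and 22.8 TPM, with library 1 high. Zbtb18, a transcriptional repressor, stood at 30.4, 56.2 and 27 TPM, with library 2 high, and Dcn was high in library 3. Tyrobp, a signalling adaptor of myeloid cells, stood at 13.7, 31.1 and 24 TPM. At the other end Gnas, the stimulatory G-protein alpha subunit, stood at 1307, 1309 and 1309 TPM, and Rpl35, a ribosomal protein, at 626, 627 and 625 TPM. Ube4a, a ubiquitin ligase, had the smallest CV of the 9019, with 36, 36 and 36 TPM.

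**Figure D4:**
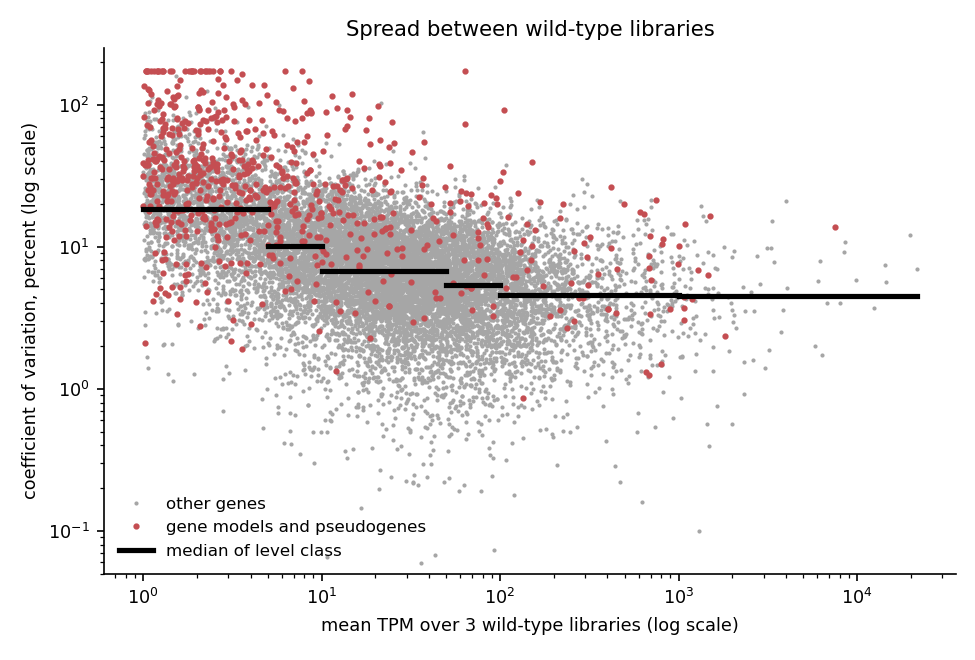
Coefficient of variation over the 3 wild-type libraries in percent (vertical axis, log scale) against mean TPM (horizontal axis, log scale) for genes with at least 1 TPM; red points are gene models and pseudogenes, grey points other genes and black bars the median of each level class. The bars fall from 18.4% in the lowest class to 4.52% in the highest, and red points lie above the bars more often than not, with a median of 13.0% at 10 TPM or more.

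Some gene groups moved together between libraries. For each list, the median over its members of log2((TPM + 1) / (mean TPM + 1)) was taken in each library, and for all genes it was -0.02, 0.00 and 0.01. For the myeloid list it was -0.26, 0.19 and 0.02. Of the 14 myeloid genes with at least 10 TPM, 13 were highest in library 2 and 12 were lowest in library 1, beside 30.3% and 44.2% of all genes at that level. This was the widest separation of the lists drawn in the plot of shifts, and lipid genes followed it in direction, with 11 of 14 highest in library 2 and 9 of 14 lowest in library 1. The myeloid and lipid lists share Msr1 and Trem2, both under 10 TPM and so not among those counted.

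Genes of the cell cycle and general endothelial lists tended to be highest in library 3. Of 29 cell cycle genes with at least 10 TPM, 24 were highest in library 3, and of 28 general endothelial genes 19 were, beside 39.2% of all genes. Arterial genes did not share this, with 2 of 9 highest in library 3 and 5 in library 2. Of 5 venous and capillary genes, 3 were highest in library 3. The median shifts of the general endothelial list were -0.08, -0.02 and 0.08, and those of the cell cycle list -0.05, -0.03 and 0.06. Contractile genes leaned the other way: 12 of 21 were lowest in library 3, beside 24.6% of all genes, with median shifts of -0.01, 0.03 and -0.04. All 13 mitochondrially encoded genes were highest in library 1 and lowest in library 3. The part of the mitochondrial share in the other differences was not tested.

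**Figure D5:**
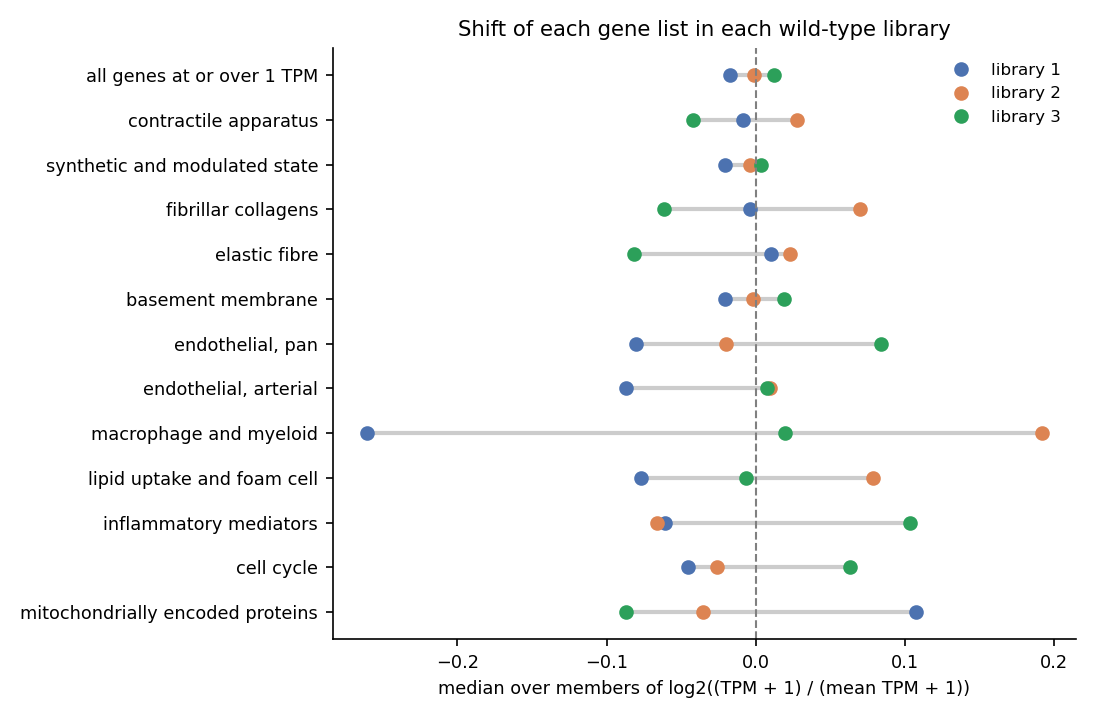
Median over list members of log2((TPM + 1) / (mean TPM + 1)) (horizontal axis) in each of the 3 wild-type libraries, for 12 gene lists and for all genes with at least 1 TPM; each point is 1 library and the grey bar joins the lowest and highest. The myeloid list spans from -0.26 in library 1 to 0.19 in library 2, whereas all genes span from -0.02 to 0.01.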

How the data were processed

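RNA was measured in 3 wild-type cultures, grouped by the genotype label, 1 mouse each. The authors deposited 1 table of TPM for 36144 genes; its name points to kallisto. Every column sums to 1e+06. The genome build was mm10 (submitters' processing notes). The sources used here do not give the kallisto version, the transcript annotation or read numbers, so depth and counting error are unknown and no count test was possible. Reads of near-identical genes are divided by estimation. A gain of abundant genes lowers every other TPM. A deposited table of footprint scores was not used.

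From the deposited TPM, the mean, SD, CV and rank over the 3 libraries were computed in Python 3.11.15 (numpy 2.4.6, pandas 2.3.3, matplotlib 3.10.9). A gene reached a level when its mean did. The floor was 1 TPM for presence and 10 TPM for spread, with a pseudocount of 1 TPM. With 1 group nothing was tested. Symbols matched the reference names for 99.4% of genes. The CV computation was checked on simulated data.

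The 43 lists (763 memberships) include signs of RNA quality: 10 of 10 heat shock genes reached 1 TPM, and 1 of 6 nuclear noncoding RNAs, Snhg11, had a row, at 1.33 ± 0.599 TPM. Genes were picked for naming by a rule, and the text gives only a part of those that met it. The rule took the 30 most abundant, with mitochondrial genes and gene models summarised. It took the defining members and the 6 most abundant of each list, and all members of the isoform families. It took the 10 genes of largest and of smallest CV at 10 TPM or more apart from gene models, which were counted. Adamts7, Emcn, Fn1, Acta2, Tagln and Cald1 were taken too. Ddx3y, Csrp1, Flna, Vcl, Synpo2, Mrvi1, Agtr1a, Ednra, Pln, Mrtfa, Tcf21, Lum, Lama4, Lama5, Mmp3, Mmp9, Nos3, Cldn5, Ackr1, Car4, Il1b, Cd36, Msr1, Trem2, Olr1, Egr2, Hoxc11, Hoxc12, Hoxd11 and Hoxd12 were named after their values were seen. The libraries, lists and members were chosen with earlier results of these data known.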

Additional observations from a re-analysis of the deposited data

How the results depend on the processing

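Without 1 library in turn, the genes reaching 1 TPM numbered 13028 to 13069, and the top-100 share was 30.6% to 31.5%. Removing the mitochondrially encoded genes multiplied other TPM by 1.15 and so, by construction, raised the shares of the contractile (1.10%), synthetic (2.49%), fibrillar collagen (0.0873%), basement membrane (0.267%), endothelial (1.07%) and myeloid (0.130%) lists and lowered the top-100 share to 22.0%. Leaving out the most abundant member gave 0.754%, 1.78%, 0.0320%, 0.140%, 0.722% and 0.0781% in the same order, and the median over members gave 0.0137%, 0.0153%, 0.00111%, 0.00257%, 0.0103% and 0.000702%. The contractile to synthetic ratio was 0.901 by medians in place of 0.444 by sums. The median CV was 6.02% at a mean of 10 TPM or more, 9.90% over genes above 0 in every library, and 5.12% to 6.69% without 1 library, where each CV rests on 2 values. Other floors gave 17186 (0.1 TPM), 10662 (5 TPM) and 9019 genes (10 TPM), and 12563 genes reached 1 TPM in every library. Of the list members and other genes kept for naming, 610 were at 1 TPM or more. Of these, 6 moved by over 1.5 times without 1 library, and 2 of them were gene models. The others were Gstp2 (9.62 TPM without library 2), Nhej1 (23.3 TPM without library 1), Egr2 (0.511 TPM without library 3) and Mbp (0.662 TPM without library 1). No paired analysis was possible because only 1 group is described and no result comes from a test. With depth unknown, a gene listed at 0 may be present below detection.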
